A study of Homo sapiens with 9 samples.

Results

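The expression of hypoxia target and glycolysis genes was examined in OVCAR3, a human epithelial ovarian cancer cell line, when *CTCFL* was raised or lowered. The set was given as a list of 39 genes, grouped here by their known roles, out of 60660 genes in the count matrix: 3 subunits of the hypoxia-inducible factor (HIF), 17 glycolytic enzymes and 19 further hypoxia targets. *CTCFL*, also called *BORIS*, encodes a DNA-binding paralog of CTCF that is normally limited to germ cells. Of the 39 genes, 38 passed the filter on low counts and were tested; *CA9* did not.

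The 3 groups, each of 3 biological replicates, were sequenced as mRNA. Control cells received the LacZ plasmid pCpGfree-vitroHLacZ, and CTCFL-OE cells received 2 µg of pCpGfree-vitroHBORIS, which carries the *CTCFL* open reading frame, in an overnight transient transfection followed by collection at 48 h. CTCFL-KD RNA came from *CTCFL* knockdown cells of an earlier experiment by the same group. A control transfected in the same way as the knockdown cells was not analysed here, so that the lowering of *CTCFL* and the separate experiment cannot be told apart in any comparison with CTCFL-KD. Each biological replicate pooled technical replicates of a single cell line.

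HIF is a dimer of an oxygen-regulated alpha subunit, encoded by *HIF1A* or *EPAS1*, and the constant partner ARNT. When oxygen is sufficient, the prolyl hydroxylases encoded by the EGLN genes mark the alpha subunits for destruction through VHL, so that the activity of HIF is set mainly at the protein level. In low oxygen HIF binds short sites with the core ACGTG or GCGTG and raises genes for blood vessel growth (*VEGFA*), for glycolysis and for the removal of acid and mitochondria. The glycolytic enzymes turn glucose into pyruvate and lactate and are also abundant in tumor cells at normal oxygen.

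*CTCFL* was counted 6, 9 and 10 times in the Control libraries, 36, 34 and 72 times in those of CTCFL-OE and 0, 1 and 0 times in those of CTCFL-KD. Summed over libraries and scaled by library size, its level in CTCFL-OE was 6.48 times that in Control (95% exact counting interval 4.22 to 10.4), and in CTCFL-KD it was 0.0567 times (0.00138 to 0.346). The libraries held 14332622 to 24490080 counts. Replicate 1 of CTCFL-KD stood apart: relative to its group mean, its values fell with exon length across 14465 genes (Spearman correlation of -0.50, a description), and its scaling factor of 0.775 was the lowest. All 12 markers of ovarian carcinoma epithelium averaged above 1 CPM, the count scaled to a common library size, in every group, and their sum was 6195 to 6291 CPM over the Control libraries, 5379 to 5766 CPM over CTCFL-OE and 10320 to 18104 CPM over CTCFL-KD; 9 of them were higher and 2 lower in CTCFL-KD. Genes of the mitochondrial genome took 6.16% to 6.52% of the counts of the Control libraries, 7.40% to 14.9% of CTCFL-OE and 7.80% to 11.8% of CTCFL-KD, so that every altered library lay above Control. The part of either shift in the results was not tested. Fibroblast markers averaged above 1 CPM for 1 of 10 in Control and CTCFL-OE (*COL1A1*) and 2 of 10 in CTCFL-KD, endothelial markers for at most 2 of 6, and leukocyte markers for at most 1 of 6. The second fibroblast marker was *COL1A2*, a collagen gene with 0 counts in every Control library and 14.1, 14.2 and 13.5 CPM in CTCFL-KD. Of the 4 fibroblast, 3 endothelial and 2 leukocyte markers tested, 2, 1 and 2 were higher in CTCFL-KD and 0, 1 and 0 lower, while the summed level of the 10 fibroblast markers was 28.0 to 33.8 CPM in Control, 25.0 to 44.2 CPM in CTCFL-OE and 37.8 to 43.0 CPM in CTCFL-KD. Those of the endothelial and leukocyte markers were 7.55 to 8.21 and 0.551 to 0.971 CPM in Control, 9.28 to 11.2 and 0.867 to 1.84 CPM in CTCFL-OE, and 6.57 to 7.79 and 2.90 to 4.69 CPM in CTCFL-KD. Among these markers 1 was called in CTCFL-OE, the endothelial *VWF*, higher by 0.71 ± 0.19 (adjusted p = 0.0951). This call passed in 1 of the 6 fits that left out a Control or CTCFL-OE library. It was lost with the replicate number as a block (adjusted p = 0.130). The part of these markers in the results was not tested.

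Promoter sequences were matched from RefSeq (GRCh38.p14) for 34 of the 39 genes. *VEGFA*, *STC1*, *BNIP3L*, *NDRG1* and *HILPDA* had no entry. The windows run from 250 bases before to 50 bases after each annotated start, and some genes have more than 1. The letters ACGTG, searched on both strands and overlapping the E-box CACGTG, which holds a copy on each strand, were found in 23 of 58 windows of the set (39.7%) and in 21.4% of all 35116 windows. With GCGTG added, the shares were 67.2% and 48.4%. Among the windows of genes that were higher in CTCFL-KD, 6 of 10 held ACGTG. These are matches of letters only.

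The printed stretches lie before the RefSeq start and outside every GENCODE exon. They were chosen because they belong to genes that passed the test in a comparison with Control and hold at least 2 copies of ACGTG, counting both strands; *EPAS1*, the gene of the set that fell the most in CTCFL-KD, is shown beside them and holds no ACGTG but 1 copy of GCGTG. *BNIP3* holds 4 copies of GCGTG, and *LDHA* and *ANKRD37* hold none of these. Capitals mark ACGTG on either strand. The first is from *LDHA*, chr11:18394313-18394559 on the plus strand, directly before the GENCODE gene (chr11:18394560-18408425), with 5 copies between 73 and 185 bases before the start. The second is from *BNIP3*, chr10:131981968-131982173 on the minus strand, directly before the GENCODE gene (chr10:131967684-131981967). The third is from *ANKRD37*, chr4:185396591-185396810 on the plus strand, and the last from *EPAS1*, chr2:46297157-46297406 on the plus strand; both lie within the span of the gene (chr4:185396021-185400628 and chr2:46293667-46386697) but in none of its exons.
LDHA: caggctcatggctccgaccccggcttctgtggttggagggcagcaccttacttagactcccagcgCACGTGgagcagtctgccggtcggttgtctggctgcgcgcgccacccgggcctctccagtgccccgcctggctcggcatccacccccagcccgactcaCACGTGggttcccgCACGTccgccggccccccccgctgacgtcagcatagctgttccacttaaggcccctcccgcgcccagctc
BNIP3: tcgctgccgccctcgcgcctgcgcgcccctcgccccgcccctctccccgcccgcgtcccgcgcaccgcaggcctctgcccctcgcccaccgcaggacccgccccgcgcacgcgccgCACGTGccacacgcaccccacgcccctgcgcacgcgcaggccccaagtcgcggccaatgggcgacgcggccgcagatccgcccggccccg
ANKRD37: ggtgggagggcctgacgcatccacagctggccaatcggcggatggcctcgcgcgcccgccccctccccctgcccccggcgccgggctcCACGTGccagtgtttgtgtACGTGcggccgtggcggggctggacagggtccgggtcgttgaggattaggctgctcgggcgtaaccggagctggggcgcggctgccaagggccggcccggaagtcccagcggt
EPAS1: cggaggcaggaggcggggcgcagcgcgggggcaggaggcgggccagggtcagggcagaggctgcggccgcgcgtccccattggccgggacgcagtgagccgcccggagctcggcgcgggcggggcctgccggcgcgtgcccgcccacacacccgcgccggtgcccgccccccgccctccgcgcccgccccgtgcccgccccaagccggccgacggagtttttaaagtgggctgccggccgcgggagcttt

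The first question was whether *VEGFA* differed between the groups. *VEGFA*, on chromosome 6, encodes the growth factor that drives the sprouting of endothelial cells. It stood at 13.9, 14.8 and 14.1 CPM in replicates 1 to 3 of Control, at 22.8, 35.4 and 35.6 CPM in CTCFL-OE and at 48.3, 62.5 and 97.6 CPM in CTCFL-KD. In bulk RNA, fewer cells of a type and less RNA per cell cannot be told apart. The 3 groups did not overlap, and every library of both altered groups lay above every Control library. On the log2 scale *VEGFA* was higher than Control by 1.13 ± 0.27 (SE) in CTCFL-OE, with an adjusted p of 0.0725 against the threshold of 0.1 set for this comparison, and by 2.29 ± 0.27 in CTCFL-KD, with an adjusted p of 0.000147 against the threshold of 0.05. All adjusted p-values are from edgeR's quasi-likelihood test over 17794 genes with Benjamini-Hochberg adjustment. Both comparisons use the same Control libraries. Compared directly, CTCFL-KD was higher than CTCFL-OE by 1.16 ± 0.26, with an adjusted p of 0.0089 at a threshold of 0.05. Among the 38 tested members, *VEGFA* ranked 3 by log2 fold change under overexpression and 2 under knockdown. The rise in CTCFL-OE lost its call when any single Control library, or replicate 2 or 3 of CTCFL-OE, was left out (adjusted p of 0.248 to 0.305, with log2 fold changes of 1.02 to 1.15). The rise in CTCFL-KD passed without any one of the 9 libraries, at 1.96 to 2.49.

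**Figure D1:**
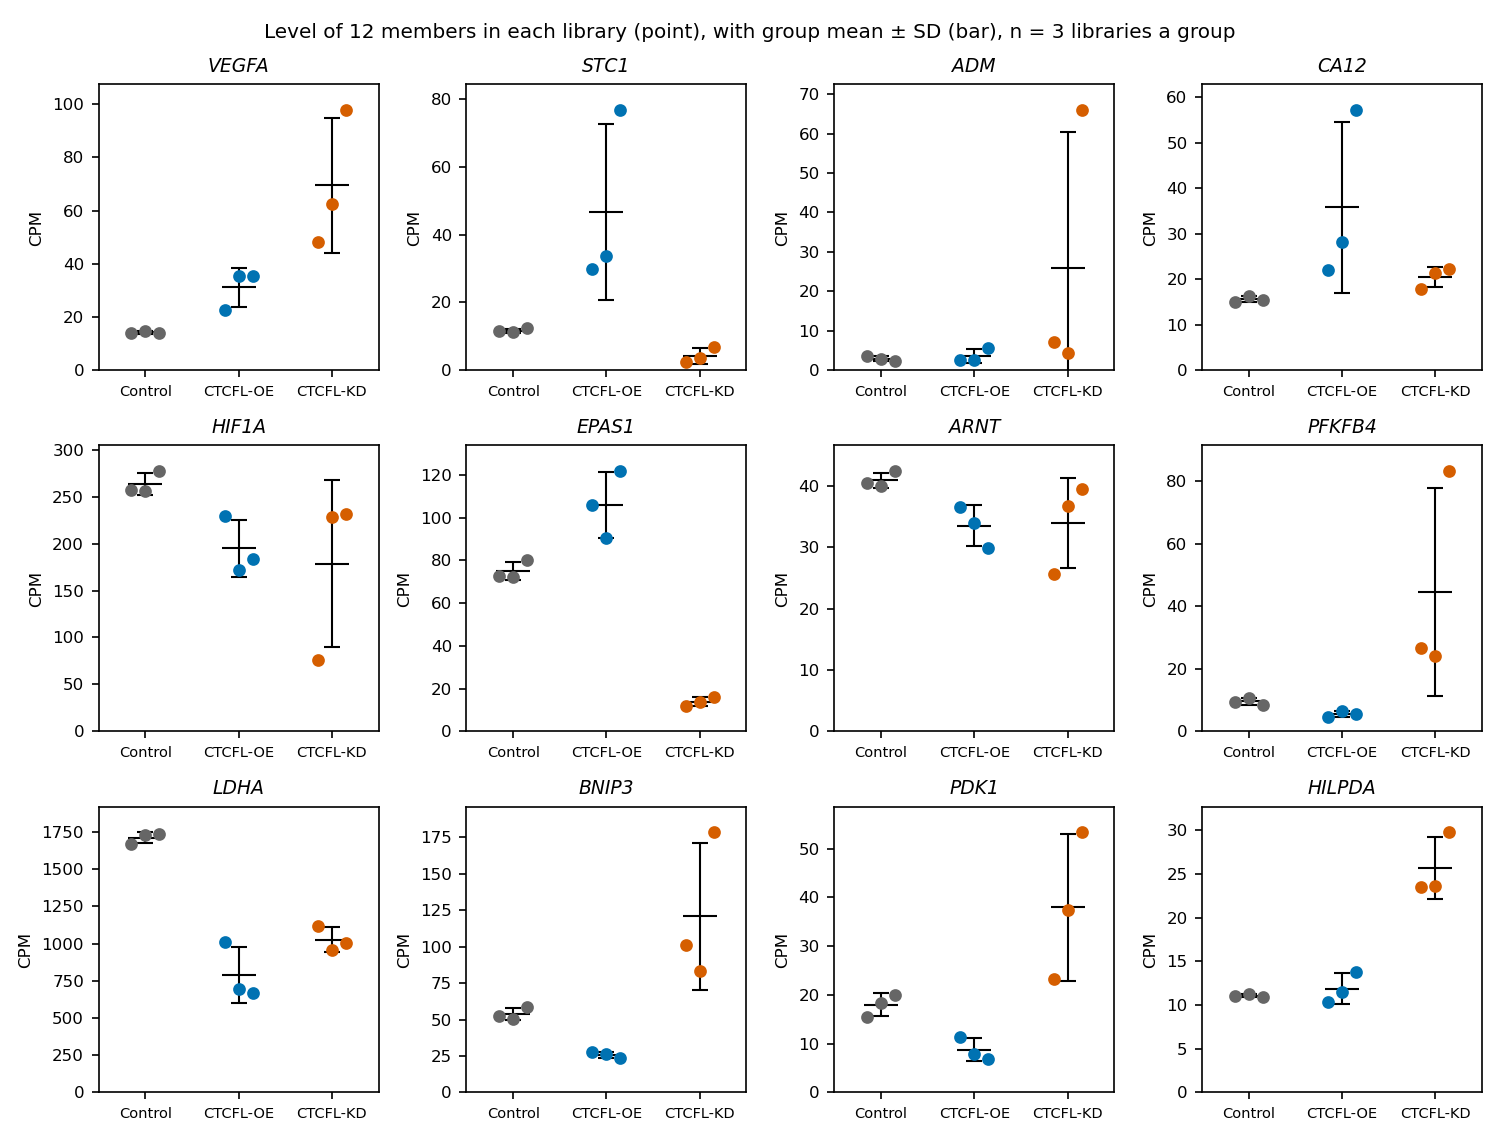
Level in CPM (y axis, from 0) of 12 members in each library, with groups on the x axis; points are libraries, and bars give the mean ± SD of 3 libraries (for *ADM* in CTCFL-KD the lower end of the bar lies below 0 and is not drawn). *VEGFA* was at 13.9 to 14.8 CPM in Control and higher in every library of both other groups, while *EPAS1* in CTCFL-KD was at 11.8 to 15.9 CPM, below every other library.

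In CTCFL-OE the *VEGFA* rise came with few other members. Of the 38 tested, 3 were higher (*VEGFA*, *STC1* and *CA12*), 2 were lower (*LDHA* and *BNIP3*) and 33 did not pass. Over all genes, 3.15% passed in this comparison, 1.99% as higher and 1.16% as lower. The median log2 fold change of the members was -0.28 and that of all genes tested -0.01. Groups did not overlap for 26 members, 6 with all CTCFL-OE libraries higher and 20 with all lower, whereas 37.1% of all genes tested had groups that did not overlap. Without any one Control library, or without replicate 2 or 3 of CTCFL-OE, none of the members passed (9 to 11 had an unadjusted p under 0.05). In those fits only 0.24% to 0.635% of all genes did. Without replicate 1 of CTCFL-OE all 5 calls passed, among 3 members higher and 7 lower, beside 15.1% of all genes. Without replicate 1 of CTCFL-KD, which enters through the shared estimate of the spread, 18 members passed, 5 higher and 13 lower, beside 27.4% of all genes.

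In CTCFL-KD, members of the set passed in both directions. Of the 38 members, 12 were higher, 6 were lower and 20 did not pass. The background was wide: 38.2% of all genes passed, 21.4% as higher and 16.8% as lower, and groups did not overlap for 56.3% of genes, beside 27 of the members. In this fit the share of members higher, 12 of 38, was above and the share lower, 6 of 38, near the share over all genes. The calls fell mostly on the hypoxia targets other than enzymes and HIF subunits, of which 10 of 18 were higher and 1 lower, with a median log2 fold change of 0.89, while 2 of the 17 glycolytic enzymes were higher and 4 lower, with a median of -0.11. The median of all genes tested was 0.08. With the replicate number as a block, 10 members were higher and 6 lower, beside 36.9% of all genes. With a length offset 9 were higher and 7 lower, beside 42.4%. Without replicate 3 of CTCFL-KD 5 of 39 were higher and 5 lower, beside 34.8%. Without its replicate 1, 15 of 39 were higher and 11 lower, beside 49.9%. These shares of all genes count both directions. Of the 18 calls, those of *EPAS1*, *VEGFA*, *PFKP*, *PFKFB4*, *BNIP3* and *HILPDA* passed in all 6 fits that left out a single Control or CTCFL-KD library, and the other 12 were lost in at least 1. Of these, *STC1*, *PGAM1* and *PDK1* passed in 4 fits, *ADM* and *NDRG1* in 3, *ALDOA*, *ENO2*, *ANKRD37* and *DDIT4* in 2, and *PFKL*, *LDHA* and *P4HA1* in 1. Without Control replicate 1, 2 or 3, 9, 11 and 8 members passed (6, 7 and 6 of them higher), beside 26.8%, 26.7% and 25.8% of all genes.

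**Figure D2:**
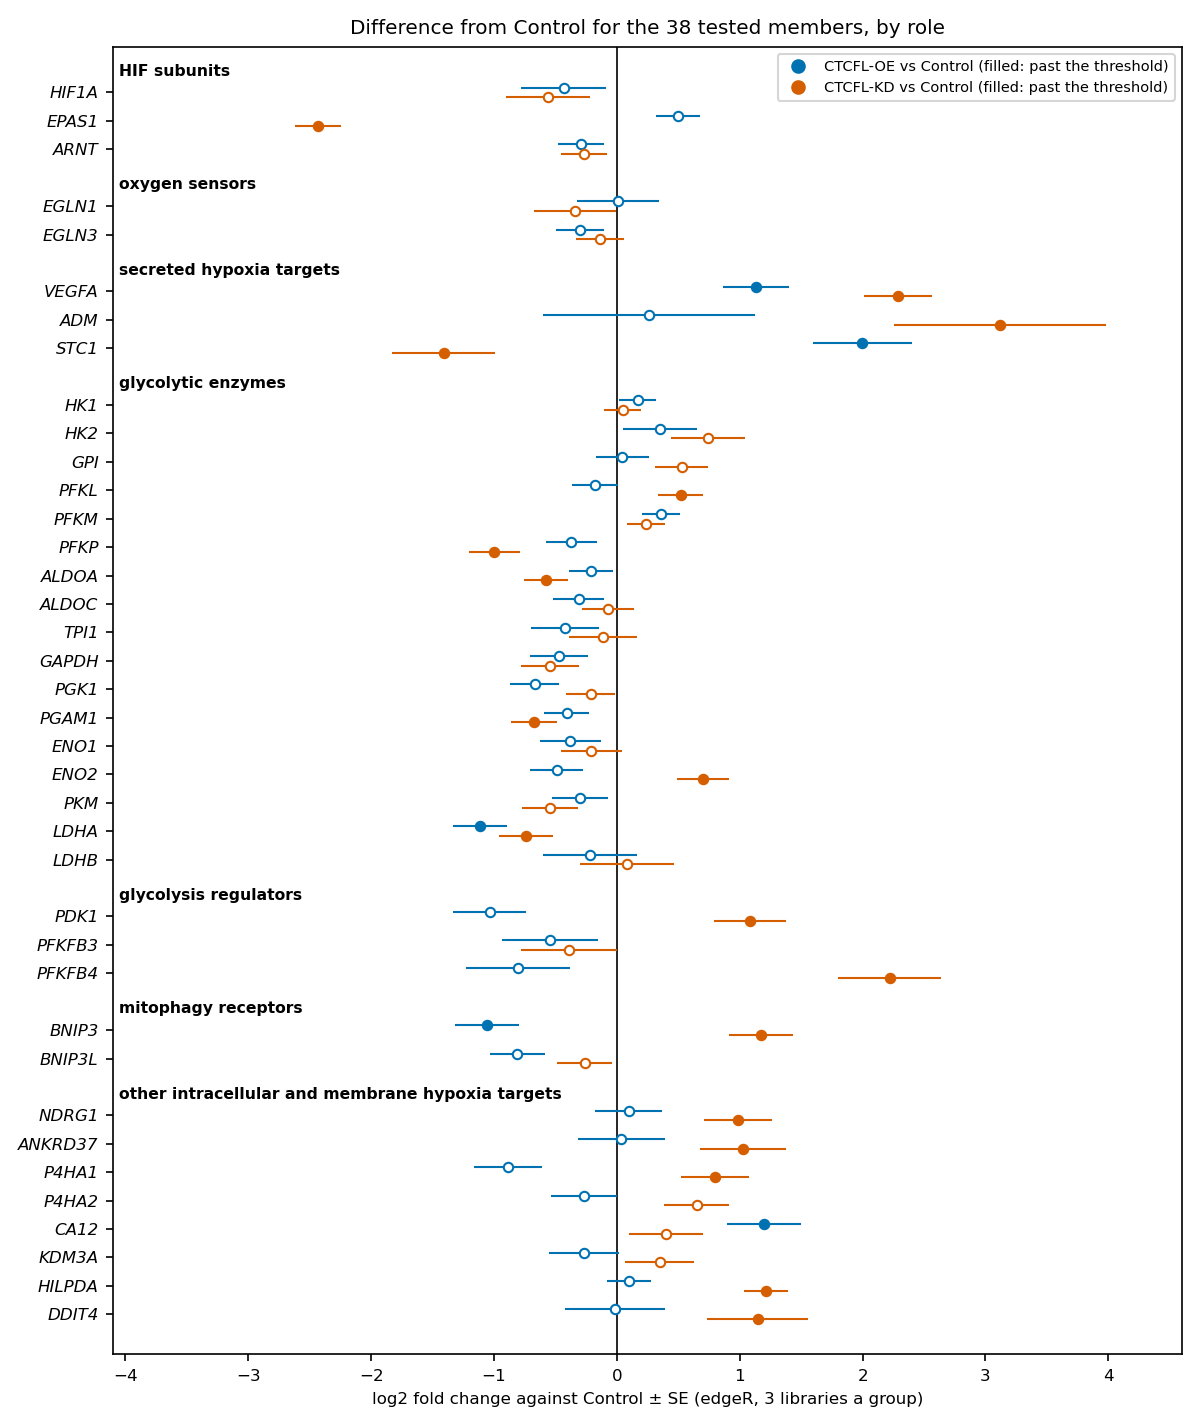
Log2 fold change against Control (x axis, with SE) of the 38 tested members by role (y axis) in CTCFL-OE (blue) and CTCFL-KD (orange); filled points passed the threshold of the comparison, and both comparisons share the Control libraries. Most filled orange points to the right of 0 belong to hypoxia targets, and the glycolytic enzymes lie on both sides of 0.

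With all 9 libraries fitted, none of the 3 HIF subunits was called higher in either group by edgeR or DESeq2 (1 had an unadjusted p under 0.05 in CTCFL-OE, 0 in CTCFL-KD), and *EPAS1* was lower in CTCFL-KD. *EPAS1* was called higher in CTCFL-OE in 2 other edgeR fits, that without replicate 1 of CTCFL-KD and that of only Control and CTCFL-OE, where 27.4% and 20.2% of all genes passed. *EPAS1*, which encodes HIF-2 alpha, was at 72.7, 72.2 and 80.1 CPM in Control, 106, 90.3 and 122 CPM in CTCFL-OE and 11.8, 13.7 and 15.9 CPM in CTCFL-KD. No library of one group reached into another. It fell by 2.43 ± 0.19 on the log2 scale in CTCFL-KD (adjusted p = 9.23e-06), the largest fall in the set and one that passed with any single library left out. In CTCFL-OE its log2 fold change was 0.50 ± 0.18 (adjusted p = 0.184), and between CTCFL-KD and CTCFL-OE it was -2.93 ± 0.19 (adjusted p = 7.38e-06).

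*HIF1A*, which encodes HIF-1 alpha, was at 257, 256 and 277 CPM in Control, 229, 172 and 184 CPM in CTCFL-OE and 75.6, 228 and 232 CPM in CTCFL-KD. All libraries of both altered groups lay below Control, with replicate 1 of CTCFL-KD far below the other 2. The log2 fold change was -0.43 ± 0.34 for CTCFL-OE and -0.56 ± 0.35 for CTCFL-KD, and neither passed (adjusted p of 0.533 and 0.221). In the 2 other fits that called *EPAS1* higher in CTCFL-OE, *HIF1A* was called lower, and in that without replicate 1 of CTCFL-KD *ARNT* was too. With no filter on low counts, *HIF1A* was called lower in CTCFL-KD (-0.61, adjusted p = 0.0472). *ARNT*, the shared partner, was at 40.5, 40.1 and 42.4 CPM in Control, 36.6, 34.0 and 30.0 CPM in CTCFL-OE and 25.6, 36.7 and 39.5 CPM in CTCFL-KD, again all below Control, and did not pass either (-0.29 ± 0.19 and -0.27 ± 0.19). Per kilobase of exon, the mean level of *HIF1A* in Control was 51.1 RPKM (CPM divided by the exon length in kilobases), that of *EPAS1* 10.3 and that of *ARNT* 6.36; in CTCFL-KD they were 34.6, 1.90 and 5.27.

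The oxygen sensors *EGLN1* and *EGLN3*, the prolyl hydroxylases that act on the alpha subunits and are themselves hypoxia targets, did not pass in either comparison. Log2 fold changes of 0.01 and -0.30 were measured for CTCFL-OE, beside -0.34 and -0.14 for CTCFL-KD. *EGLN1* shares 55.8% of its exon bases with another annotated gene on the same strand, and its counts are uncertain for that reason.

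The other secreted factors followed different courses. *STC1* encodes the hormone-like glycoprotein stanniocalcin-1. It was at 11.5, 11.2 and 12.4 CPM in Control, 29.8, 33.8 and 76.5 CPM in CTCFL-OE and 2.35, 3.63 and 6.96 CPM in CTCFL-KD. It rose by 2.00 ± 0.40 on the log2 scale in CTCFL-OE (adjusted p = 0.0463), the largest rise of the set there, and fell by 1.41 ± 0.42 in CTCFL-KD (adjusted p = 0.0219), with no overlap of the 3 groups. The direct difference between CTCFL-KD and CTCFL-OE was -3.41 ± 0.44 (adjusted p = 0.000305).

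*ADM* encodes the vasodilator peptide adrenomedullin. It was at 3.76, 2.88 and 2.33 CPM in Control, 2.55, 2.72 and 5.59 CPM in CTCFL-OE and 7.22, 4.40 and 65.8 CPM in CTCFL-KD. Replicate 3 of CTCFL-KD set the size of its change: the log2 fold change of 3.12 ± 0.86 (adjusted p = 0.0154) was the largest rise of the set, and without that library it was 0.94 and did not pass (adjusted p = 0.0813); without Control replicate 2 or 3 it was 3.08 or 2.96 and did not pass either (0.0543 and 0.0577). In CTCFL-OE it was 0.26 ± 0.86 and the libraries overlapped with Control.

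Among the regulators of glycolysis, *PDK1* encodes a kinase that keeps pyruvate out of the mitochondrial citrate cycle. It was at 15.5, 18.4 and 20.1 CPM in Control, 11.4, 7.94 and 6.88 CPM in CTCFL-OE and 23.2, 37.5 and 53.3 CPM in CTCFL-KD. It rose by 1.08 ± 0.29 in CTCFL-KD (adjusted p = 0.0138); its log2 fold change of -1.04 ± 0.30 in CTCFL-OE did not pass (adjusted p = 0.121), although all 3 libraries lay below Control. *PFKFB4*, an enzyme that sets the level of the glycolysis activator fructose 2,6-bisphosphate, was at 9.57, 10.8 and 8.46 CPM in Control, 4.56, 6.43 and 5.53 CPM in CTCFL-OE and 26.8, 24.3 and 83.2 CPM in CTCFL-KD. The rise in CTCFL-KD was 2.22 ± 0.42 (adjusted p = 0.00219) and passed with any one library left out, but was 1.40 without replicate 3. *PFKFB3*, its paralog, stood at 19.4, 37.2 and 83.6 CPM in CTCFL-KD, on both sides of the 60.8, 62.4 and 60.9 CPM of Control, and did not pass (log2 fold change of -0.39 ± 0.39); without replicate 3 it was called lower, at -1.12. In CTCFL-OE its value of -0.54 ± 0.39 did not pass with all 9 libraries and was called lower with only Control and CTCFL-OE fitted.

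The mitophagy receptors place mitochondria for removal by autophagy. *BNIP3* was at 52.7, 50.1 and 58.3 CPM in Control, 27.6, 26.3 and 23.3 CPM in CTCFL-OE and 101, 83.0 and 178 CPM in CTCFL-KD, with no overlap between any 2 groups. It fell by 1.06 ± 0.26 on the log2 scale in CTCFL-OE (adjusted p = 0.0795) and rose by 1.17 ± 0.26 in CTCFL-KD (adjusted p = 0.00505), or 0.77 without replicate 3 of CTCFL-KD, where it still passed. CTCFL-KD exceeded CTCFL-OE by 2.23 ± 0.27 (adjusted p = 0.000204). The annotation lists 44 pseudogenes named after *BNIP3*, and how reads matching several places were counted is not given in the sources used here. *BNIP3L* had log2 fold changes of -0.81 ± 0.22 in CTCFL-OE (adjusted p = 0.111) and -0.26 ± 0.22 in CTCFL-KD (adjusted p = 0.373).

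The 9 intracellular and membrane hypoxia targets remained. *CA12*, a membrane carbonic anhydrase that handles acid outside the cell, was the only one to pass in CTCFL-OE. It was at 14.9, 16.3 and 15.5 CPM in Control, 22.0, 28.3 and 57.0 CPM in CTCFL-OE and 17.9, 21.3 and 22.2 CPM in CTCFL-KD, so that both altered groups lay above Control in every library. The log2 fold changes were 1.20 ± 0.30 in CTCFL-OE (adjusted p = 0.0868) and 0.40 ± 0.30 in CTCFL-KD (adjusted p = 0.32). Without replicate 3 of CTCFL-OE, the first was 0.68.

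*CA9*, the other carbonic anhydrase and one of the most used markers of hypoxia, was almost silent. It had 0, 1 and 1 counts in Control, 1, 0 and 0 counts in CTCFL-OE and 11, 9 and 20 counts in CTCFL-KD. All CTCFL-KD libraries lay above the rest, and the ratio of the summed levels of CTCFL-KD to Control was 28.4 with a 95% exact interval of 7.35 to 242, which covers counting error only. Of its exon bases, 35.7% overlap a gene on the opposite strand.

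In CTCFL-KD, 5 of the 8 tested genes of this group were higher, beside 21.4% of all genes. *HILPDA*, which coats lipid droplets, was at 11.0, 11.3 and 10.9 CPM in Control, 10.3, 11.5 and 13.8 CPM in CTCFL-OE and 23.5, 23.7 and 29.7 CPM in CTCFL-KD. Its CTCFL-KD libraries lay close together, and the rise was 1.21 ± 0.18 (adjusted p = 0.000453). *NDRG1*, a stress-response gene, was at 143, 170 and 150 CPM in Control, 235, 143 and 117 CPM in CTCFL-OE and 244, 276 and 398 CPM in CTCFL-KD, a rise of 0.99 ± 0.28 in the latter (adjusted p = 0.0171). *P4HA1*, a collagen prolyl hydroxylase, was at 77.6, 78.2 and 81.0 CPM in Control, 35.5, 35.4 and 57.2 CPM in CTCFL-OE and 87.6, 139 and 186 CPM in CTCFL-KD. The rise of *P4HA1* in CTCFL-KD was 0.80 ± 0.28 (adjusted p = 0.0407), or 0.52 without replicate 3 (0.154), and its value of -0.89 ± 0.28 in CTCFL-OE did not pass (adjusted p = 0.144).

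The 2 remaining calls, at log2 fold changes of 1.15 and 1.03, passed without the replicate number as a block but not with it. *DDIT4*, an inhibitor of mTOR signaling, was at 14.8, 16.1 and 13.9 CPM in Control, 13.2, 19.2 and 11.7 CPM in CTCFL-OE and 20.7, 17.5 and 60.5 CPM in CTCFL-KD. *ANKRD37*, an ankyrin-repeat gene, was at 1.70, 1.83 and 1.32 CPM in Control, 1.82, 2.19 and 0.922 CPM in CTCFL-OE and 2.62, 2.56 and 4.66 CPM in CTCFL-KD. For both, all CTCFL-KD libraries lay above Control and replicate 3 was the highest. With the block, the adjusted p of *DDIT4* went from 0.0466 to 0.0775 and that of *ANKRD37* from 0.0382 to 0.0552, at log2 fold changes of 1.02 and 1.04. Without replicate 3, the log2 fold changes were 0.35 and 0.67. *ANKRD37* shares 40.3% of its exon bases with a gene on the opposite strand. *P4HA2* and *KDM3A* had log2 fold changes of 0.65 and 0.35 in CTCFL-KD and did not pass.

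Replicate 3 of CTCFL-KD held the highest value of its group for 17 of the 18 hypoxia targets other than enzymes and HIF subunits, whereas it did so for 28.5% of all genes tested. The median difference of these 18 genes from the Control mean was 0.42, 0.52 and 1.30 in replicates 1 to 3 of CTCFL-KD and -0.21, -0.16 and -0.34 in CTCFL-OE. Every CTCFL-KD library was thus above, and every CTCFL-OE library below, the Control libraries, which lay between -0.02 and 0.03. Without replicate 3, 5 of the 19 hypoxia targets were still called higher in CTCFL-KD (*VEGFA*, *PFKFB4*, *HILPDA*, *BNIP3* and *CA9*, which then passed the filter) and 2 lower, while 34.8% of all genes passed. Without replicate 1, 12 were higher and 1 lower, while 49.9% of all genes passed.

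**Figure D3:**
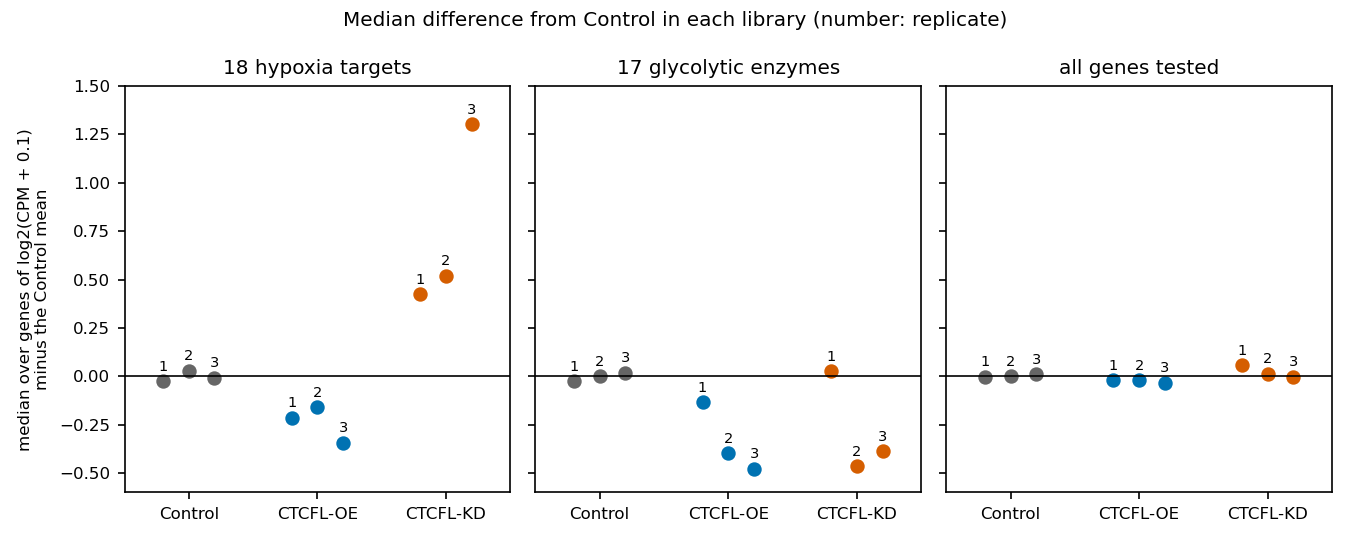
Median over genes of log2(CPM + 0.1) minus the Control mean (y axis) in each library, for 18 hypoxia targets, 17 glycolytic enzymes and all genes tested, with groups on the x axis and replicate numbers beside the points. The hypoxia targets reach 1.30 in replicate 3 of CTCFL-KD, the enzymes lie at -0.47 and -0.39 in replicates 2 and 3 and at 0.03 in replicate 1, and the median of all genes stays near 0.

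Few of the glycolytic enzymes rose with *VEGFA*. In CTCFL-OE, with all 9 libraries fitted, 1 of 17 was lower by edgeR (*LDHA*) and 2 were by DESeq2. None was higher by either (1 at an unadjusted p under 0.05). Of all genes, 1.16% were lower and 1.99% higher by edgeR, and 7.65% passed in either direction by DESeq2. The median log2 fold change of the enzymes was -0.31, and 13 of the 17 values were below 0. *PGK1*, phosphoglycerate kinase, was also lower by edgeR with a length offset. Without replicate 1 of CTCFL-KD, 7 enzymes were lower and 1 higher (*PFKM*), beside 27.4% of all genes. With only Control and CTCFL-OE fitted, 4 were lower and 2 higher (*PFKM* and *HK2*), beside 20.2%, and without replicate 1 of CTCFL-OE 4 were lower and 0 higher, beside 15.1%. Of the counts in each library, the 17 enzymes took 1.69% ± 0.02 (SD, n = 3) under Control, 1.23% ± 0.25 under overexpression and 1.14% ± 0.06 under knockdown. In CTCFL-OE the share was 1.51%, 1.18% and 1.02% in replicates 1 to 3, in which mitochondrial genes took 7.40%, 12.4% and 14.9%. Of the counts outside mitochondrial genes, a total chosen after seeing the data, the enzymes took 1.80% ± 0.02, 1.39% ± 0.22 and 1.26% ± 0.08 in the 3 groups. Every altered library remained below Control in this share. Both shares use totals without the scaling factor, which was 0.775 in replicate 1 of CTCFL-KD. In scaled CPM, the median log2 difference of the enzymes from the Control mean was 0.03, -0.47 and -0.39 in replicates 1 to 3 of CTCFL-KD. In CTCFL-OE it was -0.13, -0.40 and -0.48. *ENO1*, *PKM*, *GAPDH* and *LDHA* supplied 80.3% of the enzyme counts in Control. Per kilobase of exon the order in Control was *GAPDH* (1342 RPKM), *ENO1* (796), *PKM* (451), *TPI1* (331) and *LDHA* (284), and *ENO2* was the lowest at 2.73.

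*LDHA* encodes the lactate dehydrogenase subunit that favors the making of lactate. It was at 1672, 1730 and 1733 CPM in Control, 1007, 696 and 670 CPM in CTCFL-OE and 1119, 956 and 1000 CPM in CTCFL-KD. Every altered library lay below every Control library. The fall was 1.11 ± 0.22 on the log2 scale in CTCFL-OE (adjusted p = 0.042) and 0.74 ± 0.22 in CTCFL-KD (adjusted p = 0.0206), opposite in sign to *VEGFA* in both groups. Each of these calls passed in 1 of the 6 fits that left out a library of the groups compared, at an adjusted p of 0.0544 to 0.0704 in the other 5 for CTCFL-KD. The direct difference between CTCFL-KD and CTCFL-OE, 0.37 ± 0.22, did not pass (adjusted p = 0.222).

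In CTCFL-KD, *PFKP*, the platelet-type phosphofructokinase, was at 25.1, 27.8 and 43.2 CPM against 64.3, 61.2 and 66.7 CPM in Control and 53.1, 48.5 and 47.0 CPM in CTCFL-OE. It fell by 0.998 ± 0.21 (adjusted p = 0.00384), and this call passed with any one library left out. Its liver-type paralog *PFKL* was higher, by 0.52 ± 0.19 (adjusted p = 0.0466), and the muscle-type *PFKM* did not pass (0.24 ± 0.15). *ENO2*, the neuron-type enolase, was at 11.9, 12.5 and 10.7 CPM in Control, 7.16, 9.46 and 8.36 CPM in CTCFL-OE and 23.7, 14.0 and 19.4 CPM in CTCFL-KD, a rise of 0.70 ± 0.21 in the latter (adjusted p = 0.0236). *PGAM1* and *ALDOA* fell by 0.67 ± 0.18 and 0.58 ± 0.18 (adjusted p of 0.0145 and 0.0243). *ALDOA* shares 42.8% of its exon bases with another gene on the same strand, so its level is uncertain, and the annotation lists 13 pseudogenes named after *PGAM1*.

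The remaining 11 enzymes did not pass in CTCFL-KD, with log2 fold changes from -0.55 (*PKM* and *GAPDH*) to 0.74 (*HK2*). Their values in replicate 1 differed from those in replicates 2 and 3: of the 17 enzymes, 13 were highest in replicate 1, against 44.7% of all genes. *TPI1* was at 1227, 612 and 638 CPM and *LDHB* at 160, 47.4 and 54.9 CPM in replicates 1 to 3, with Control means of 894 ± 14.3 and 82.5 ± 3.13 CPM (SD, n = 3). Without replicate 1, 9 enzymes were lower and 3 higher, beside 49.9% of all genes, and the median log2 fold change was -0.46 instead of -0.11. *LDHB* shares 33.4% of its exon bases with another gene on the same strand.

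**Figure D4:**
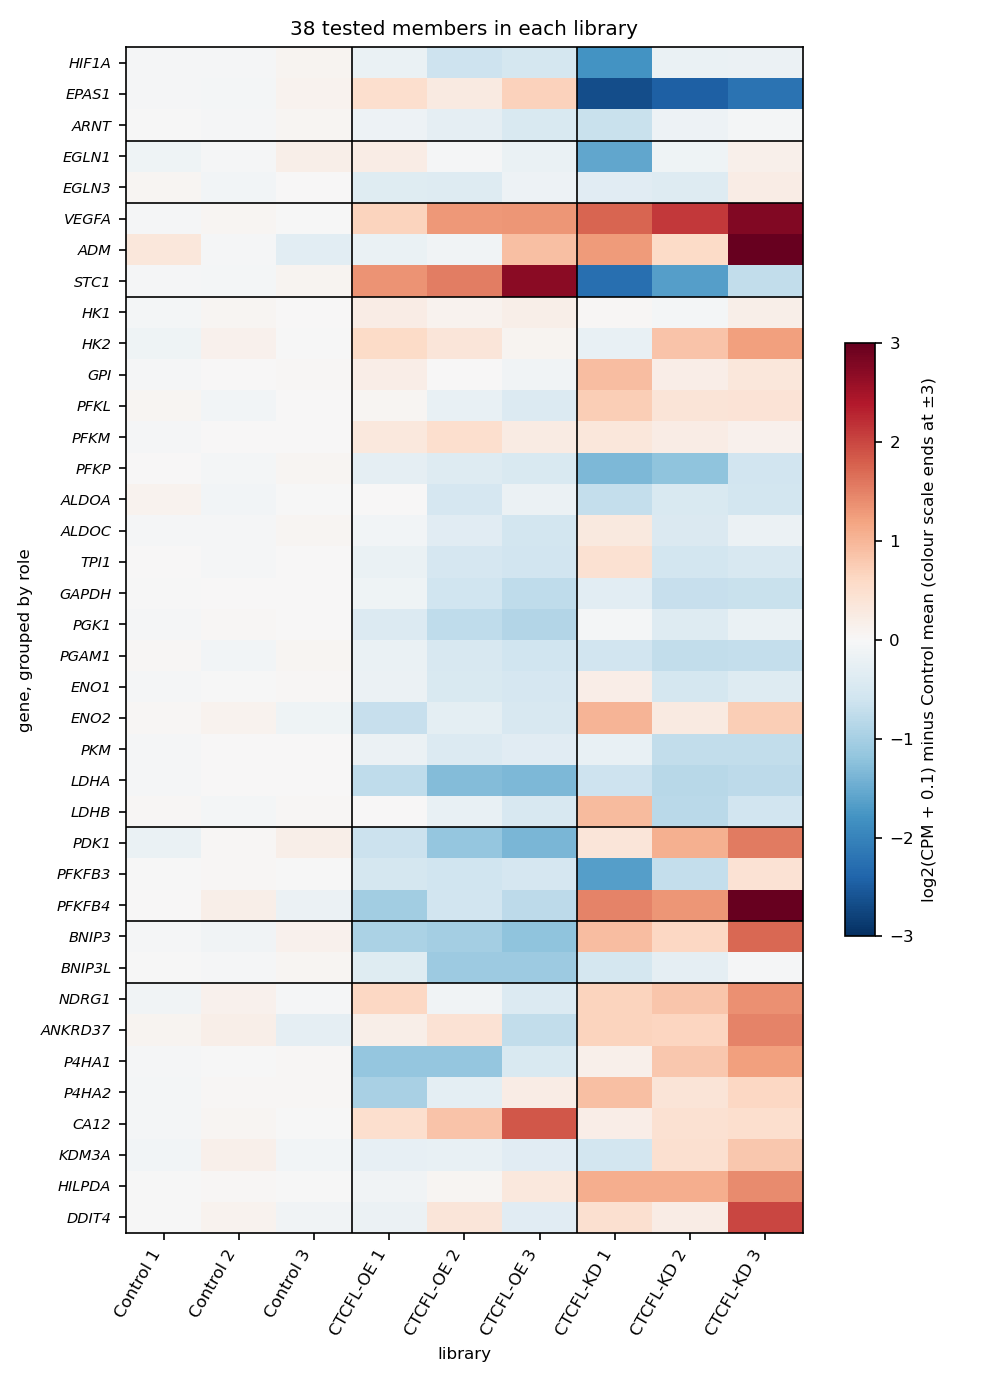
Each of the 38 tested members (rows, grouped by role with lines between the groups) in each library (columns), as log2(CPM + 0.1) minus the Control mean; red is higher and blue lower, and the color scale ends at ±3. Replicate 3 of CTCFL-KD is the reddest column among the hypoxia targets, and the enzyme rows are mostly pale blue except in replicate 1 of CTCFL-KD.

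Compared directly, 11 members were higher and 3 lower in CTCFL-KD than in CTCFL-OE, beside 26.8% of all genes (15.3% higher, 11.5% lower). Those higher were *VEGFA*, *ADM*, *PDK1*, *PFKFB4*, *BNIP3*, *HILPDA*, *NDRG1*, *P4HA1*, *P4HA2*, *ENO2* and *PFKL*. Those lower were *EPAS1*, *STC1* and *PFKP*. The largest rise was that of *PFKFB4*, at 3.03 ± 0.44 (adjusted p = 0.000645), followed by *ADM*, *BNIP3* and *PDK1*, the last at 2.12 ± 0.30 (adjusted p = 0.000599). Without replicate 3 of CTCFL-KD, *PFKFB4* was at 2.21 and still passed, whereas *ADM* went from 2.86 to 0.68; the *ADM* libraries of these groups overlapped, and its call passed in 2 of the 6 fits without a CTCFL-OE or CTCFL-KD library. The median over the 18 hypoxia targets was 0.95 and over the enzymes 0.24, beside 0.04 for all genes.

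Genes of the same pathways outside the set were read from lists drawn up from known roles, with earlier results of these data known. Of 35 tested further hypoxia targets, 16 were higher and 2 lower in CTCFL-KD, beside 21.4% of all genes higher and 16.8% lower. Their median log2 fold change there was 0.73. None passed in CTCFL-OE by edgeR, beside 3.15% of all genes (4 lower and 0 higher at an unadjusted p under 0.05). By DESeq2, 2 of 36 were lower and 0 higher in CTCFL-OE, beside 7.65% of all genes passed. *PPP1R3C*, which directs a phosphatase to glycogen, rose by 2.93 ± 0.34, and *NRN1*, a neurite growth factor, by 2.15 ± 0.39 on the log2 scale (adjusted p of 0.000107 and 0.00176). *SLC2A1*, the main glucose transporter gene under HIF, was at 243, 244 and 246 CPM in Control, 125, 174 and 221 CPM in CTCFL-OE and 220, 244 and 365 CPM in CTCFL-KD and passed in neither comparison.

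Of 12 genes that control HIF, 1 was higher and 0 lower in CTCFL-OE, beside 1.99% and 1.16% of all genes, and 1 was higher and 2 lower in CTCFL-KD, beside 21.4% and 16.8%. The gene higher in CTCFL-OE was *EGLN2*, a prolyl hydroxylase, by 1.22 ± 0.31 (adjusted p = 0.0895). The CTCFL-OE calls of *EGLN2* and, in the lists that follow, of *NRP2* and *TXNIP* each passed in 1 of the 6 fits that left out a Control or CTCFL-OE library. In CTCFL-KD, *HIF3A*, an alpha subunit with inhibitory forms, was higher by 1.89 ± 0.24 (adjusted p = 0.000219), and *CUL2*, part of the VHL ligase, and *HIF1AN*, an asparagine hydroxylase that limits HIF activity, fell by 0.67 ± 0.17 and 0.49 ± 0.16 (adjusted p of 0.00851 and 0.0366). The call of *HIF1AN* passed in 2 of the 6 fits without a Control or CTCFL-KD library.

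All 7 tested genes of the VEGF family and its receptors passed in CTCFL-KD, 5 higher and 2 lower, beside 38.2% of all genes, and 1 of 7 passed in CTCFL-OE, beside 3.15%. The receptor gene *KDR* and the co-receptor gene *NRP1* rose by 2.73 ± 0.38 and 2.88 ± 0.37 from low levels (1.27 to 2.14 and 0.233 to 0.304 CPM in Control), and *VEGFC* rose by 1.65 ± 0.29 (adjusted p of 0.000343, 0.000213 and 0.00134). The co-receptor gene *NRP2* fell in both, by 0.99 ± 0.21 in CTCFL-OE (adjusted p = 0.0545) and by 1.42 ± 0.21 in CTCFL-KD (adjusted p = 0.000567).

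Of 19 tested further genes of glucose metabolism, 3 were higher and 6 lower in CTCFL-KD, where 21.4% and 16.8% of all genes were, and 1 was lower in CTCFL-OE, as were 1.16% of all genes. *TXNIP*, a brake on glucose uptake, fell by 1.25 ± 0.31 in CTCFL-OE (adjusted p = 0.081) and by 3.41 ± 0.36 in CTCFL-KD (adjusted p = 6.09e-05). *LDHC*, the testis form of lactate dehydrogenase, had 36 counts over the CTCFL-KD libraries and 2 over Control, a ratio of 25.5 (95% exact counting interval 6.57 to 219).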

How the data were processed

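RNA was sequenced from 9 OVCAR3 libraries, grouped by GEO's sample titles. Per the study's methods and the submitters' processing notes, reads were trimmed with Trimmomatic, aligned by STAR to GRCh38 and assigned to genes by featureCounts; kallisto is named without a role. The values the authors deposited are raw counts. Strand setting and handling of multi-mapped reads are not given in the sources used here. Totals were 14332622 to 24490080 counts, where 3 counts are 0.122 to 0.209 CPM, and intervals cover counting error only.

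Symbols and exons came from GENCODE 44, which named 60463 of 60660 identifiers. Counts were filtered with filterByExpr, scaled by TMM and fitted over all 9 libraries by group with edgeR 4.0.16 (glmQLFit, robust); CPM use TMM-scaled library sizes. Thresholds followed the study's methods (adjusted p under 0.1 for CTCFL-OE and 0.05 for CTCFL-KD), without its fold cut; its tool, DESeq2 (1.42.0), was an alternative. Same-numbered Control and CTCFL-KD libraries deviated together over 14490 genes (correlations of 0.280, 0.162 and 0.203), so replicate number was also fitted as a block; this pairing comes from the data, not from the labels. The fits were tested on simulated data. Per-library values are given for *VEGFA*, the HIF subunits, members past the threshold in CTCFL-OE and the 15 largest past it in CTCFL-KD; from each list of other genes, the 3 largest past the threshold in each comparison were named, except for genes that are counted in their list but not reported here. *SLC2A1* and the other members described were added after their values were seen. The members and all gene lists were chosen with earlier results of these data known.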

Additional observations from a re-analysis of the deposited data

How the results depend on the processing

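The rise of *VEGFA* in CTCFL-KD and its excess over CTCFL-OE passed under every alternative, at log2 fold changes of 1.96 to 2.49 and 0.83 to 1.36. Its rise in CTCFL-OE was 1.02 to 1.31 and passed under every other scaling, filter and model, but lost its call in 5 of 9 leave-one-out fits, at 1.03 without replicate 2 of CTCFL-OE, 1.02 without replicate 3, and 1.11, 1.15 and 1.12 without Control replicates 1, 2 and 3. The number of members past the threshold in CTCFL-OE, 5, was 9 with DESeq2 (a tool that also called 1373 genes overall against 561), 9 with no low-count filter, 17 with only Control and CTCFL-OE fitted, 8 with a length offset, and 8 with the replicate block and a length offset together; the shares of all genes were 7.65%, 4.01%, 20.2%, 6.29% and 4.72%, against 3.15%. With single libraries left out it ranged from 0 to 18, beside 0.24% to 27.4% of all genes. In CTCFL-KD, 18 members became 16 with the replicate block, 16 with a length offset, 21 with DESeq2, 17 with only the 2 groups fitted, and 8 to 26 with single libraries left out, beside 36.9%, 42.4%, 31.9%, 36.8% and 25.8% to 49.9% of all genes, against 38.2%. Between CTCFL-KD and CTCFL-OE, 14 became 9 with only those 2 groups fitted and 10 to 22 with single libraries left out, beside 15.5% and 17.3% to 39.7%, against 26.8%. The cause of these shifts was not tested. No member called in a comparison changed sign there under any alternative. Of the members not called, 7 of 33 changed sign in CTCFL-OE (among them *ADM*, 0.26, at -0.19 to 0.46), 5 of 20 in CTCFL-KD (*EGLN1*, *HK1*, *TPI1*, *ALDOC* and *LDHB*, the last 0.08, at -0.68 to 0.38) and 9 of 24 between CTCFL-KD and CTCFL-OE. Under the other scalings, filters and models, 213 of 230 values of named members kept their side of the threshold, and so did 144 of 207 leave-one-out values. Control and CTCFL-OE libraries of the same number did not deviate together (-0.03, 0.20 and -0.05), so the pairing was not used there. The block gave 6 calls there, with *P4HA1* added (adjusted p = 0.0944), beside 2.39% of all genes against 3.15%. It took the call of *EGLN2* (0.119). Between CTCFL-KD and CTCFL-OE the block gave 13 calls instead of 14, without *NDRG1* (0.0502), beside 25.6% of all genes against 26.8%. Depth limits *CA9* and *LDHC*.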
